A study of Arabidopsis thaliana with 12 samples.

Results

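A set of 124 probe sets, out of 22810 on the array, had higher signals in sex1-3 and lower signals in ptpkis2 than in wild type leaves of Arabidopsis thaliana at the end of the night. The set was chosen from the signals themselves. A probe set entered it when its mean log2 signal over 11 arrays was at least 6, when the sex1-3 mean lay at least 0.5 above and the ptpkis2 mean at least 0.5 below the wild type mean on the log2 scale, and when all sex1-3 values lay above and all ptpkis2 values below all wild type values. Wild type replicate 2 took no part. Of the 131 probe sets that met these conditions, 7 were left out by name, namely those of AKINBETA1, MCCA, SIS, AT3G15450, AT4G27450, AT2G20670 and AT5G19120. The sex4-3 arrays decided nothing beyond their share in the mean level, so they could be placed on the scale that sex1-3 and ptpkis2 span.

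Transcripts were measured on the Affymetrix ATH1 array, which gives 1 signal intensity per probe set. The series held 12 arrays, 3 each of sex1-3 (an induced mutation in the Col-0 background), ptpkis2 (the Salk_053285 insertion line, ptpks in the titles), sex4-3 (the Salk_102567 insertion line) and wild type Columbia. The growth chamber gave 100 micromol of photons per square metre and second for 12 hours a day at 20 degrees Celsius, and relative humidity was 75% or above. Leaves of 8 plants per genotype, all labelled as developmental stage 3.7, were cut in the dark, 0.5 hours ahead of dawn, and frozen. The labels leave it unstated if a genotype's 3 arrays hold separate pools of plants, so the p-values given here reflect the differences between arrays and possibly no biological spread. Each mutant is represented by 1 line.

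Leaves store part of the carbon fixed by day as starch and break it down at night to feed respiration and sucrose export. SEX1 is the glucan, water dikinase that phosphorylates starch and so opens the granule surface to degrading enzymes, SEX4 is a phosphatase that removes those phosphate groups again, and PTPKIS2 is a related protein, also known as LSF1, that is needed for normal starch breakdown. When sugars run short, the kinase SnRK1 and the transcription factors below it raise many transcripts for the breakdown and recycling of cell material, and sugar supply lowers the same transcripts.

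Signals of probe sets for the leaf proteins RCA and LHCB4.1, the only 2 of 9 leaf markers named here, had medians of 9507 and 7509 over 11 arrays. Wild type replicate 3 was the lowest of the 11 in both, with 5870 for RCA and 5466 for LHCB4.1, where wild type replicate 1 had 9507 and 7912. The 3 root markers with a named probe set had medians of 1.58 to 12.5, and no flower or seed marker was named here. None of the 3 mutated genes (SEX1, SEX4, PTPKIS2) had a named probe set, so they could not serve as a check of the labels. The 11 arrays correlated with each other at 0.891 to 0.93 across probe sets. Wild type replicate 2 correlated with them at 0.586 to 0.606, and its median signal was 62.2 against 24 to 29.7 on the others. Its values are printed in brackets after those of wild type replicates 1 and 3. In whole leaves, fewer cells of a type and less RNA per cell cannot be told apart.

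The conditions on sex1-3 were met by 649 of the 7740 probe sets with a mean log2 of at least 6, or 8.39%. Those on ptpkis2 were met by 622, or 8.04%, and both by 131, or 1.69%. These shares describe the choice and test nothing. Over the 124 members, the sex1-3 difference from wild type ran from 0.51 to 2.99 with a median of 0.78, where all 13647 probe sets tested had a median of -0.06. The ptpkis2 difference ran from -2.81 to -0.51 with a median of -0.79, where all probe sets tested had 0.03. In 65 members the ptpkis2 difference was the larger of the 2 in size, and in 59 the sex1-3 difference was. Both differences reached 1, a change of 2-fold, in 21 members. The members' mean log2 signals ran from 6.16 to 11.0 with a median of 8.03.

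**Figure D1:**
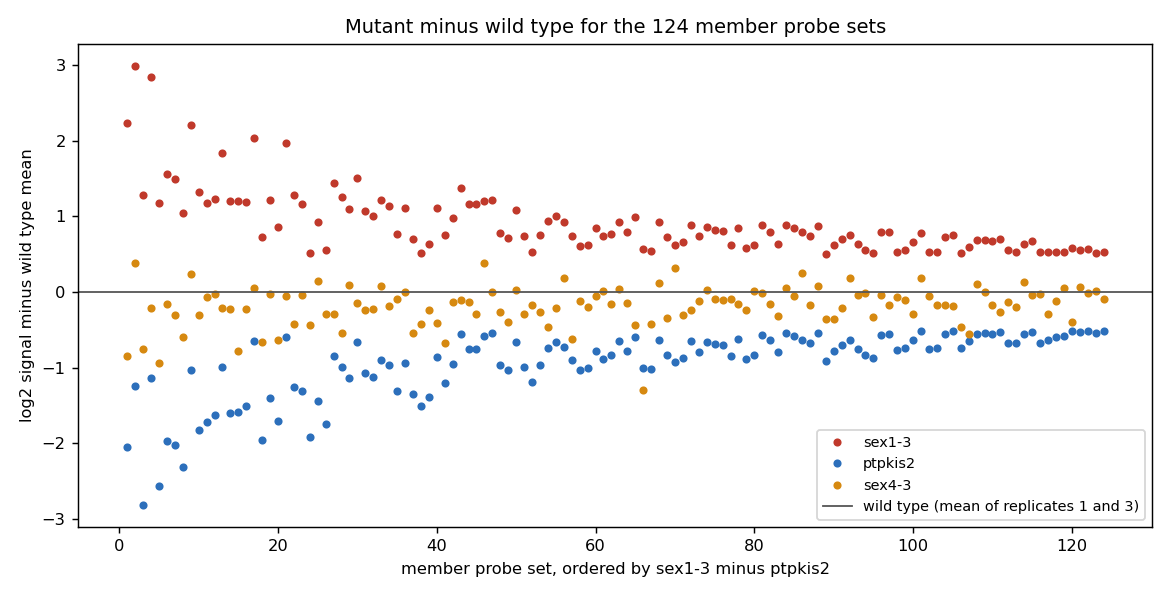
Mean log2 signal minus the wild type mean for each of the 124 member probe sets, in order of the gap between sex1-3 and ptpkis2, with 1 point per mutant. By the choice of members the sex1-3 points lie above 0.5 and the ptpkis2 points below -0.5, and the sex4-3 points, which the choice did not use in this way, run from -1.30 to 0.39.

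The platform annotation paired 58 members with 1 gene and 2 with several genes, and 64 are unnamed here. Of the 58, 53 carry only a locus number, so what is said of their function is background from the known protein families. Of the unnamed ones, the widest gap between sex1-3 and ptpkis2 was that of probe set 247954_at, which had 967, 789 and 726 in sex1-3, 44.2, 52.9 and 32.6 in ptpkis2, 51.4, 129.9 and 137 in sex4-3 and 111 and 276 in wild type (68.6). Next came 267461_at, with 903, 1047 and 1292 in sex1-3, 39.6, 57.9 and 79.7 in ptpkis2, 129, 195 and 218 in sex4-3 and 135 and 134 in wild type (358). In both, sex4-3 and wild type overlapped, far below sex1-3.

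Among the named members, AT1G72060 had the widest gap. This small gene is annotated as an inhibitor of serine proteases. Its signal was 2226, 1912 and 2363 in sex1-3, 134, 146 and 131 in ptpkis2, 159, 298 and 369 in sex4-3 and 233 and 388 in wild type (647). The sex1-3 signals averaged 2167 ± 231 (SD, n = 3) and the ptpkis2 signals 137 ± 7.85 (SD, n = 3), a gap of 15.8-fold between geometric means. All 3 sex4-3 signals lay above those of ptpkis2, and they overlapped wild type. The inhibitor AT2G38870, of the potato inhibitor type, and the aspartyl protease AT1G05840 were members too, with sex1-3 differences of 0.70 and 0.54 and ptpkis2 differences of -0.53 and -1.19. In all 3 of these genes the sex4-3 mean was below the wild type mean, with differences of -0.26 to -0.18 and overlapping signals. For AT1G72060 the sex4-3 difference was 0.16 against wild type replicate 1 alone and -0.58 against replicate 3 alone. Over all probe sets tested, the sex4-3 mean was below the wild type mean in 52.1%, and all 3 sex4-3 signals lay below wild type in 9.94%. Of the 58 named members, 24 had a sex4-3 difference whose sign was not the same against wild type replicate 1 as against replicate 3.

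A group loosely tied to regulation, formed after the members were known, held 6 of the named members. For AT2G30600 and AT1G56220 a role in gene regulation is not shown here. AT2G30600 encodes a protein with a BTB domain, a fold found in adaptors of ubiquitin ligases. It had 288, 265 and 262 in sex1-3, 31.7, 24.2 and 30.3 in ptpkis2, 61.9, 76.8 and 69.7 in sex4-3 and 75.2 and 45.5 in wild type (99.2). The sex1-3 signals were 4.64-fold above wild type and 9.50-fold above ptpkis2 (ratios of geometric means), and sex4-3 overlapped wild type. Its sex4-3 difference was -0.12 against wild type replicate 1 alone and 0.61 against replicate 3 alone. A further probe set of this gene, which missed the set with a mean log2 of 5.996, reads the same gene with other probes. It gave 172, 145 and 127 in sex1-3, 33.8, 36.1 and 33.1 in ptpkis2, 71.1, 66.3 and 38.4 in sex4-3 and 83.2 and 37.3 in wild type (81.9). Its differences were 1.40 in sex1-3, -0.70 in ptpkis2 and 0.02 in sex4-3. The 2 wild type signals lay far apart in this probe set, and all 3 ptpkis2 signals lay below them.

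AT5G63190 encodes a translation regulatory factor with MA3 domains. Its signals were 839, 784 and 857 in sex1-3, 335, 278 and 313 in ptpkis2, 675, 500.3 and 540.2 in sex4-3 and 399 and 569 in wild type (106). Its sex4-3 difference of 0.25 ± 0.18 (SE) came with overlapping signals, and it was 0.51 against wild type replicate 1 alone and -0.01 against replicate 3 alone. With wild type replicate 2 included, its ptpkis2 difference was 0.09. The others in this group were bHLH121, a transcription factor of the iron deficiency response, the MYB-like factor AT1G74840, the R3H domain protein AT5G05100 and AT1G56220. The last is of the dormancy and auxin associated family. Over these 6 genes, the sex1-3 differences ran from 0.53 to 2.21 and the ptpkis2 differences from -1.03 to -0.63. The sex4-3 mean was below the wild type mean in 3 of them (52.1% of all probe sets tested), in a range of -0.17 to 0.25. All 3 sex4-3 signals lay below wild type in 2 of them, AT1G74840 and AT5G05100, as in 9.94% of all probe sets tested.

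Protein turnover and folding held 9 named members, grouped so after the members were known. The F-box proteins among them select targets for ubiquitin ligases: SKP2A degrades cell cycle regulators and binds auxin, FBL17 degrades inhibitors of cyclin-dependent kinases, and AT3G07870 is of unknown target. AT3G07870 had 714, 669 and 651 in sex1-3, 123, 158 and 134 in ptpkis2, 401, 351 and 373 in sex4-3 and 432 and 487 in wild type (145). SKP2A had 340.0, 374 and 386 in sex1-3, 135, 107 and 109 in ptpkis2, 278, 181 and 211 in sex4-3 and 153 and 243 in wild type (263). In AT3G07870 the ptpkis2 difference of -1.74 was larger in size than the sex1-3 difference of 0.56, and its sex4-3 signals all lay below wild type replicates 1 and 3. In SKP2A the differences were 0.93 in sex1-3 and -0.73 in ptpkis2, and sex4-3 overlapped wild type. Against wild type replicate 1 alone they were 1.26 and -0.39, and against replicate 3 alone 0.59 and -1.06. FBL17 was at 0.76 in sex1-3, -0.64 in ptpkis2 and 0.18 in sex4-3. The others were the RING protein AT3G02340, the ubiquitin-binding type protein AT5G12120, DER2.1, a derlin of protein export from the endoplasmic reticulum for degradation, the J-domain cochaperones AT5G16650 and AT5G05750, and AT5G16880, a TOM1-like protein of ubiquitin-marked membrane cargo. Over the 9, sex1-3 differences ran from 0.52 to 0.93 and ptpkis2 differences from -1.74 to -0.56. The sex4-3 mean was below wild type in 6 of the 9, where it was in 52.1% of all probe sets tested, and DER2.1 (-0.31 ± 0.15) and AT3G07870 (-0.29 ± 0.15) were the 2 whose sex4-3 signals all lay below wild type, as in 9.94% of all probe sets tested.

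Lipid-linked genes gave 5 named members. AT2G39400 and AT5G16120 are of the alpha/beta hydrolase family that includes monoacylglycerol lipases. AT2G39400 had 325, 297 and 285 in sex1-3, 74.4, 57 and 91 in ptpkis2, 100.2, 129.7 and 160.3 in sex4-3 and 161 and 213 in wild type (41.9). AT5G16120 had 279, 233 and 292 in sex1-3, 103, 116 and 108 in ptpkis2, 175, 171 and 184 in sex4-3 and 118 and 206 in wild type (155). The sex4-3 signals lay wholly below wild type in AT2G39400 (-0.54 ± 0.23) and overlapped wild type in AT5G16120 (0.18 ± 0.20), and neither passed limma's test (adjusted p = 0.998 for both). AT5G55530, with a C2 domain that binds lipids, had 361, 306 and 327 in sex1-3, 124, 159 and 135 in ptpkis2, 159, 158 and 187 in sex4-3 and 189 and 283 in wild type (152). Here too the sex4-3 signals were all below wild type, and replicates 1 and 2 were level with the highest ptpkis2 signal. The SEC14-type lipid transfer protein AT4G35750 and the START-type protein AT5G54170 were at 0.75 and 0.62 in sex1-3, -0.96 and -0.78 in ptpkis2, and -0.26 and -0.36 in sex4-3. In AT5G54170 too all sex4-3 signals lay below wild type, which held for 3 of the 5 and for 9.94% of all probe sets tested. The sex4-3 mean was below wild type in 4 of the 5, and in 52.1% of all probe sets tested.

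Other enzymes and a transporter gave 8 named members. AT5G65380, of the MATE family of export carriers, had 878, 1058 and 705 in sex1-3, 225, 176 and 214 in ptpkis2, 326, 350.3 and 371 in sex4-3 and 391 and 402 in wild type (125). AT2G32150, a hydrolase of the HAD type, had 212, 181 and 263 in sex1-3, 59.6, 71.6 and 72.6 in ptpkis2, 69.6, 70.5 and 113 in sex4-3 and 88.6 and 143 in wild type (65.3). AT4G28830, of the methyltransferase type, had 119, 139 and 109 in sex1-3, 33.3, 53.7 and 47.4 in ptpkis2, 69.1, 78.2 and 75.7 in sex4-3 and 75.6 and 82.5 in wild type (113). In AT5G65380 the sex4-3 signals all lay just below wild type, in AT2G32150 replicates 1 and 2 of sex4-3 lay at the ptpkis2 level and replicate 3 inside the wild type range, and in AT4G28830 sex4-3 overlapped wild type. The remaining members of this group were the oxygenases AT5G43450 and AT4G16330 of the 2-oxoglutarate and iron type, the short-chain dehydrogenase AT2G37540, the methyltransferase-like AR401, and AT1G74910, a nucleotide sugar pyrophosphorylase-like protein that supports GDP-mannose supply. In all 8 the sex4-3 mean was below wild type, with differences of -0.46 to -0.09. The 3 sex4-3 signals all lay below wild type in AT5G65380, AT2G37540 and AT1G74910. The shares over all probe sets tested were 52.1% for the mean and 9.94% for all 3 signals.

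No role is given here for 27 named members. Those with the widest gap were AT3G15630, AT1G54740, AT1G10140, AT1G22890, AT2G27830, AT1G80180 and AT5G56100. AT3G15630 had 503, 598 and 544 in sex1-3, 62.8, 49.4 and 74.7 in ptpkis2, 127, 226 and 191 in sex4-3 and 248 and 191 in wild type (82.1). AT1G54740 had 659, 703 and 598 in sex1-3, 85.4, 106 and 80.6 in ptpkis2, 296, 275 and 246 in sex4-3 and 308 and 249.5 in wild type (86.3). AT1G10140 had 161, 175 and 189.7 in sex1-3, 43.3, 38.6 and 37 in ptpkis2, 65.2, 72.3 and 75 in sex4-3 and 78.1 and 89 in wild type (154). In the first and second of these, sex4-3 overlapped wild type, and in AT1G10140 its 3 signals lay below. AT1G22890 had 1079, 1269 and 1258 in sex1-3, 234, 296 and 306 in ptpkis2, 527, 525 and 589 in sex4-3 and 525 and 505 in wild type (393). AT2G27830 had 511, 487 and 519.7 in sex1-3, 106, 116 and 141 in ptpkis2, 293, 244 and 301 in sex4-3 and 225 and 394 in wild type (166). AT1G80180 had 910.5, 1246 and 1016 in sex1-3, 249, 249 and 258 in ptpkis2, 495, 417 and 548 in sex4-3 and 473 and 498 in wild type (244). AT1G22890 was the only named member whose sex4-3 signals all reached or passed wild type, by 0.09 ± 0.15, while the others of these 3 overlapped it. AT5G56100 had 422, 603 and 446 in sex1-3, 135, 108 and 114 in ptpkis2, 263, 272 and 223 in sex4-3 and 391 and 290.0 in wild type (173). Its sex4-3 signals lay below wild type and above ptpkis2.

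**Figure D2:**
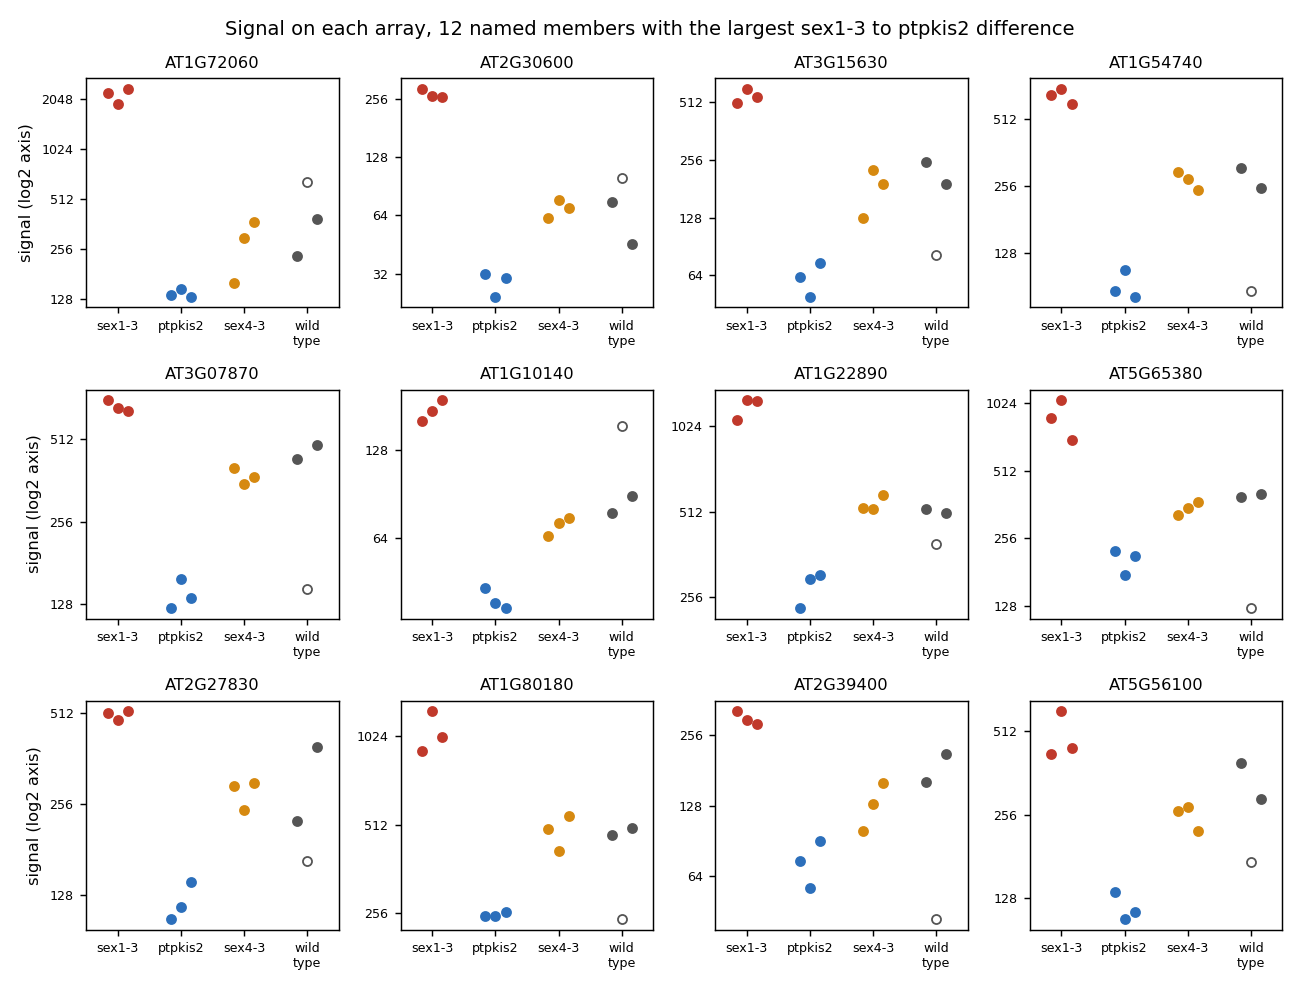
Signal on each of the 12 arrays, on log2 axes that differ between panels, for the 12 named members with the widest gap between sex1-3 and ptpkis2. Filled points are the 11 arrays used and open points wild type replicate 2. Among the filled points, those of sex1-3 lie at the top and those of ptpkis2 at the bottom by the choice of members, and sex4-3 lies between them. The sex4-3 points all lie below wild type replicates 1 and 3 in AT3G07870, AT1G10140, AT5G65380, AT2G39400 and AT5G56100. They all lie above in AT1G22890 and overlap wild type in the rest.

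Lower in sex4-3 than the rest of the named members without a given role were AT2G25200 and AT3G62550. AT2G25200 had 228, 192 and 224 in sex1-3, 59.4, 75.6 and 71.9 in ptpkis2, 74, 97.4 and 80.2 in sex4-3 and 107 and 153 in wild type (23.9). AT3G62550 had 159.5, 176 and 182 in sex1-3, 44.9, 33.3 and 59.4 in ptpkis2, 33.2, 82.8 and 96 in sex4-3 and 92.3 and 113 in wild type (76.5). In AT2G25200 all 3 sex4-3 signals lay below wild type (-0.62 ± 0.20, adjusted p = 0.81 by limma). In AT3G62550 (-0.67 ± 0.36) sex4-3 replicate 1 was as low as the lowest ptpkis2 signal, and the other replicates were near wild type.

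The other members of this kind were AT2G15960, AT3G62650, AT1G78460, AT2G01100, AT5G16110, AT5G66490, AT4G25170, AT5G24460, AT3G52070, AT1G27300, AT2G46220, AT2G19350, AT4G19160, AT3G29240, AT2G04690, AT1G33050, AT3G10030 and AT5G25270. Over all 27, the median difference was 0.74 in sex1-3, -0.88 in ptpkis2 and -0.11 in sex4-3. AT5G16110 and AT5G16120 are neighbours on the genome, with 0 protein-coding genes between them in the RefSeq table. They had sex1-3 differences of 0.74 and 0.78, ptpkis2 differences of -0.88 and -0.51 and sex4-3 differences of 0.01 and 0.18. In AT5G16120 these rested on which wild type array was used. Against replicate 1 alone they were 1.18 in sex1-3, -0.11 in ptpkis2 and 0.58 in sex4-3, and against replicate 3 alone 0.38, -0.92 and -0.22. No other pair of named members lay side by side, and the next closest had 7 genes between them. The 2 probe sets that match several genes each, AT1G53890 with AT1G53870 and AT1G18020 with AT1G17990, cannot be split between them. Their sex4-3 differences were -0.24 and -0.56.

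At the threshold on sex1-3, AT3G52070 (0.51) and AT5G25270 (0.51) were just inside, and AT5G24870 (0.496) and AT4G32130 (0.48) just outside. AT3G52070 had 122, 119 and 121 in sex1-3, 32, 50.6 and 57.8 in ptpkis2, 75.5, 60.5 and 64.5 in sex4-3 and 81.5 and 88.6 in wild type (152). AT5G25270 had 156, 154 and 153 in sex1-3, 77.9, 67.6 and 78.4 in ptpkis2, 149, 97.2 and 89.2 in sex4-3 and 104 and 113 in wild type (76.3). In both, the 3 sex1-3 signals were close together, and sex4-3 lay below wild type in AT3G52070 and reached from below wild type to near sex1-3 in AT5G25270. At the threshold on ptpkis2, AT4G19160 (-0.51) and AT5G16120 (-0.51) were just inside, and AT2G31810 (-0.497) and CCL (-0.49) just outside. AT4G19160 had 438, 345 and 379.8 in sex1-3, 174, 155 and 153 in ptpkis2, 273, 195 and 152 in sex4-3 and 218 and 239 in wild type (262). Its sex4-3 signals covered the whole range from the ptpkis2 level to above wild type. At the mean level, AT3G52070 (6.20) and AT4G28830 (6.22) were the lowest named members, and the further probe set of AT2G30600 (5.996) and AT1G75770 (5.98) fell just short.

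On this scale the median of sex4-3 lay slightly to the ptpkis2 side of wild type. The sex4-3 difference from wild type had a median of -0.16 over the 124 members, with quartiles of -0.30 and -0.02, where all probe sets tested had a median of -0.01 with quartiles of -0.18 and 0.15. The sex4-3 mean was below the wild type mean in 97 members, or 78.2%, against 52.1% of all probe sets tested. When wild type replicate 2 was counted in, it was below in 60 members, or 48.4%, against 47.6% of all. The share was 60.5% against 52.4% of all without wild type replicate 3, and 83.1% against 53.8% without wild type replicate 1. A difference of -0.5 or below was seen in 13 members, or 10.5%, against 5.29% of all probe sets tested, and 0 members reached 0.5 upward, against 4.08%. The other 111 members lay within 0.5 of wild type, or 89.5%, which was near the 90.6% of all probe sets tested. With the ptpkis2 mean of each member set at 0% and the sex1-3 mean at 100%, sex4-3 had a median place of 41.2% with quartiles of 31.3 and 51.4%. Wild type itself had a median place of 51% with quartiles of 43.3 and 57.5%. The sex4-3 mean lay between the means of ptpkis2 and sex1-3 in 123 of the 124 members. The choice set those 2 means at least 0.5 to either side of wild type, so this count describes the set and tests nothing.

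**Figure D3:**
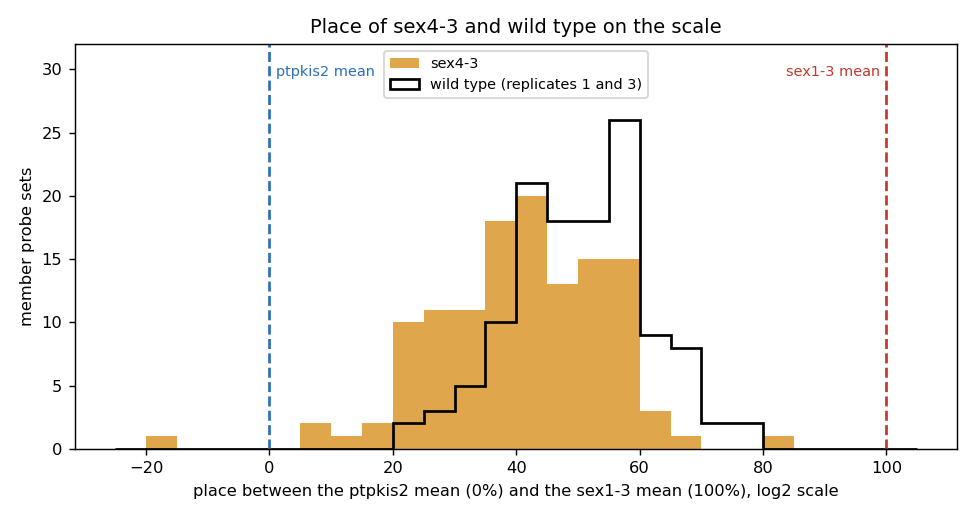
Number of member probe sets by the place of the sex4-3 mean (filled) and of the wild type mean of replicates 1 and 3 (line) between the ptpkis2 mean at 0% and the sex1-3 mean at 100%, on the log2 scale in steps of 5%. Both spread around the middle, with medians of 41.2% for sex4-3 and 51% for wild type.

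Array by array, all 3 sex4-3 signals lay below both wild type signals in 28 members, or 22.6%, against 9.94% of all probe sets tested. All 3 lay above in 3 members, against 7.65% of all probe sets tested. The groups overlapped in the other 93. With all 12 arrays, all sex4-3 signals lay below wild type in 11 members, or 8.87%, against 4.72% of all probe sets tested. Fewer arrays overlap less by construction, so each share is set beside its own background. It was 58.9% against 27.1% of all when wild type replicate 1 was dropped, and 30.6% against 24.3% when replicate 3 of wild type was. It was 28.2% against 19.7% without sex4-3 replicate 1, 29.0% against 14.5% without replicate 2 and 37.1% against 16% without replicate 3. All sex4-3 signals lay below all sex1-3 signals in 122 members, or 98.4%, where the share over all probe sets tested was 13.5%. All lay above all ptpkis2 signals in 101 members, or 81.5%, where the share was 9.58%. Since the choice of members fixed sex1-3 as high and ptpkis2 as low, the last 2 counts describe the set and were not tested.

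Limma's test of sex4-3 against wild type was not used in the choice of members. It shared the wild type arrays with that choice, and its SE also drew on the spread of the sex1-3 and ptpkis2 arrays. The choice asked that sex1-3, ptpkis2 and wild type signals not overlap, so the test is not free of it. At limma's adjusted p of 0.05, 0 of 124 members passed, where 0.00733% of all probe sets tested, or 1 probe set, did. The smallest adjusted p of a member was 0.49, and the median SE of the difference was 0.19. Of all 13647 probe sets tested, only 7740 had the mean log2 of at least 6 that members needed. Here and above, the shares over all probe sets tested thus include weaker signals than any member could have. At an unadjusted p below 0.05, 18 members were lower in sex4-3, or 14.5%, against 2.62% of all probe sets tested. At that level 0 members were higher, against 2.07%. Of those 18, AT2G25200, AT2G39400, AT5G56100, AT5G55530, AT5G54170 and AT5G66490 are named. With all 12 arrays, 3 members were lower at that level. The share of all probe sets under that setting is not given here, so this count has no background. A p that misses the threshold does not show that sex4-3 and wild type are alike.

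The sex4-3 shift was similar in size to the gap between the wild type arrays. Over the members, wild type replicate 3 was a median of 0.19 above replicate 1 on the log2 scale, and it was the higher in 95 members, or 76.6%. Over all probe sets tested that median was 0.02, and replicate 3 was the higher in 51.7%. Against replicate 1 alone the median sex4-3 difference was -0.06, and against replicate 3 alone it was -0.25. With wild type replicate 2 added it was 0.02, so its sign rests on leaving that array out. On that array the members had a median of -0.62 relative to the other wild type arrays, where all probe sets tested had -0.11. It placed 59 members between the highest ptpkis2 and the lowest sex1-3 signal, 8 at or above that range and 57 at or below it.

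The sex4-3 arrays also differed among themselves. The members' median relative to wild type was -0.26 on replicate 1, -0.13 on replicate 2 and -0.05 on replicate 3, where all probe sets tested had 0.01, -0.01 and -0.01. Replicate 1 was the lowest of the 3 in 65 members, where it was the lowest in 35.9% of all probe sets tested. Replicate 3 was the highest in 60 members, where it was the highest in 33.5% of all. In ptpkis2 the medians were -0.90, -0.79 and -0.75, and in sex1-3 they were 0.78, 0.82 and 0.81. Replicate 1 was the lowest ptpkis2 array in 62 members, where it was the lowest in 35.6% of all probe sets tested. The sex1-3 array medians thus lay closer together than those of ptpkis2 or sex4-3, and the sex4-3 array medians spanned a range wider than the median sex4-3 shift.

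**Figure D4:**
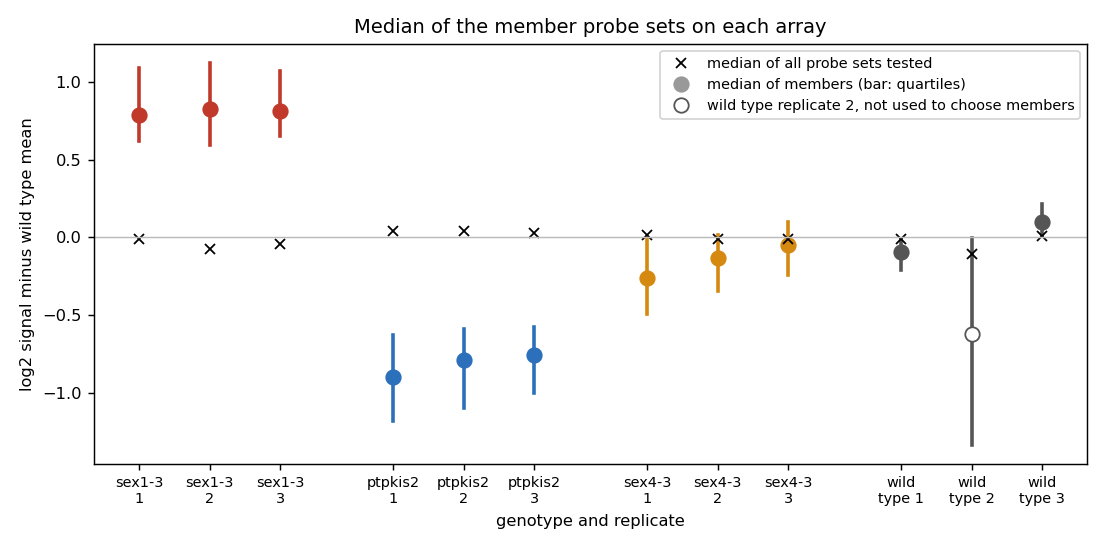
Median over the 124 members of the log2 signal minus the mean of wild type replicates 1 and 3 on each array, with bars from the lower to the upper quartile and crosses for the median of all 13647 probe sets tested. The sex1-3 medians lie at 0.78 to 0.82, the ptpkis2 medians at -0.90 to -0.75 and the sex4-3 medians at -0.26 to -0.05, while wild type replicates 1 and 3 lie at -0.10 and 0.10 and replicate 2, shown open, at -0.62.

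Genes that sugar lowers and SnRK1 raises were followed through a list of 30 loci, of which 8 had a named probe set and 7 were tested. Of these, 4 passed limma's test as higher in sex1-3, against 3.23% of all probe sets tested that were higher there. The 4 were AT1G54740 and AT2G32150, both members of the set, and ATL8, a RING-type ubiquitin ligase (2.12 ± 0.52, SE, adjusted p = 0.022), and the remorin family gene AT3G61260 (0.70 ± 0.19, adjusted p = 0.036). AT1G54740 was the 1 gene of the list that passed as lower in ptpkis2, where 1.87% of all probe sets tested were lower. No gene of the list was lower in sex1-3 or higher in ptpkis2, where 5.64% and 0.835% of all probe sets tested were. ATL8 had 52.3, 60.1 and 37.7 in sex1-3, 35.6, 25.8 and 31 in ptpkis2, 26.7, 24.1 and 24.6 in sex4-3 and 4.71 and 27.2 in wild type (102). Its call rested on the low signal of wild type replicate 1, without which the sex1-3 value was 0.85 (adjusted p = 0.24 by limma). AT3G61260 had 0.46 without wild type replicate 3 (adjusted p = 0.24 by limma). In sex1-3, AT2G32150 had 0.59 without wild type replicate 1 and 1.29 without replicate 3, and AT1G54740 had 1.39 and 1.08. The 2 members were chosen on these differences, so their calls are a description. The list's median was 0.94 in sex1-3, -0.41 in ptpkis2 and -0.03 in sex4-3. The sex1-3 median was the value of the member AT2G32150, and the sex4-3 median that of the member AT1G54740. These medians and the count of 4 are thus not independent of the choice of members. Outside the set, ATL8 had a ptpkis2 value of 1.43 and AT3G61260 of -0.32, and neither passed. With all 12 arrays, 1 gene of the list passed as higher in sex1-3 and 0 as lower in ptpkis2, and with any 1 sex1-3 array or wild type replicate 1 left out, 2 passed in sex1-3. With eBayes run without a trend, 1 did.

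The other lists had few named probe sets, and none held a member of the set. Of 21 clock genes 1 was tested, COR27, which rose in sex1-3 (1.77, adjusted p = 3.7e-05 by limma) and had 0.29 in ptpkis2. Of 12 genes that sugar raises 3 were tested. The vacuolar invertase AT1G62660 fell in sex1-3 (-1.39, adjusted p = 0.021 by limma) and had -0.26 in ptpkis2 and -1.13 in sex4-3, and the other 2 did not pass. That call was lost without either wild type array (adjusted p = 0.075 and 0.12 by limma). Of 12 senescence genes 2 were tested, and neither passed in any mutant. Of the 7 class II trehalose phosphate synthases none was named.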

How the data were processed

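The deposited values are signal intensities, 1 per probe set and array, made by the authors with GCOS and MAS5, per the submitters' processing notes; for versions and array scaling: not given in the sources used here. Signals were taken to log2 with no pseudocount. Control probe sets and the 40% with the lowest mean were left out, which kept 13647. The tests were limma 3.58.1 (R 4.3.3; lmFit, eBayes with a trend), 2-sided, with Benjamini-Hochberg adjustment over all kept probe sets and a threshold of 0.05, on 11 arrays without wild type replicate 2, and all genotypes shared 1 estimate of spread. The fit was tested on simulated data. The number of arrays limits the precision.

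The members and gene lists were chosen with earlier results of these data known, and the role groups after the members were known. Since sex1-3 and ptpkis2 against wild type chose the members, values there are descriptive. All 3 comparisons share the wild type arrays. Gene names come from the array's annotation, in which 13513 probe sets had 1 gene, 503 several and 8730 none, and 13484 of the first were found in the RefSeq table (TAIR10.1), which also gave the neighbours. Every member with 1 gene is named; signals on every array are given for the 12 with the widest gap, those on a list, the 4 highest and 4 lowest in sex4-3 and the 2 just inside each threshold. Alternatives were another normalization, filter, floor, threshold and eBayes setting, all 12 arrays, a block for the replicate number, and each array dropped in turn. Deviations of same-numbered arrays correlated at -0.17 to 0.29, over 0.1 in 3 of 15 pairs, so the numbers were not taken to pair arrays. The highest were those of wild type with sex4-3, 0.23 for replicate 1 and 0.29 for replicate 3. A pairing of those genotypes alone was not tested. Promoter and protein sequences were not used here.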

Additional observations from a re-analysis of the deposited data

How the results depend on the processing

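With all 12 arrays the set held 67 members, 56 of them shared with the 124, the median sex4-3 difference was 0.023 in place of -0.16, and the ptpkis2 difference of AT5G63190 was 0.091 in place of -0.63. The probe sets that passed numbered 403 in sex1-3, 36 in ptpkis2 and 1 in sex4-3, against 1211, 369 and 1 with 11 arrays. Difference thresholds of 0.4, 0.75 and 1 gave 198, 38 and 21 members, and median centring of each array gave 231, which held all 124. With eBayes without a trend 780 probe sets passed in sex1-3 and 185 in ptpkis2, and with a mean log2 of at least 6 as the filter 0 passed in sex4-3. Leaving out 1 array at a time gave 118 to 139 members, 476 to 1493 probe sets passing in sex1-3, 151 to 472 in ptpkis2, 1 to 8 in sex4-3 and a median sex4-3 difference of -0.25 to -0.06. Without wild type replicate 1, 89 of the 124 stayed members, and without replicate 3, 82. The replicate block gave 1220, 343 and 1 passing probe sets. Median centring moved the median of all probe sets tested in sex1-3 to 0.10, against -0.06, and the share of calls that were higher to 63.5%, against 36.4%; in ptpkis2 that share was 18.2%, against 30.9%. No member passed in sex4-3 under any of the 20 alternatives. Why these values moved was not tested. The number of arrays, 2 of them wild type, sets the precision.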

Other observations

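The lowest sex4-3 value of any member was that of the unnamed probe set 251109_at, singled out after its values were seen. It had 1202, 1772 and 1679.9 in sex1-3, 239, 693 and 824 in ptpkis2, 160.2, 732 and 635 in sex4-3 and 1047 and 1023 in wild type (304 on replicate 2). Replicate 1 was far below the other arrays in both ptpkis2 and sex4-3, and the wild type signals used lay close together. Its sex4-3 difference was -1.30 ± 0.56 (SE, adjusted p = 0.998 by limma), and its place was -18.6%, the only member beyond the ptpkis2 mean.

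On wild type replicate 2 the members did not move as 1 block. It was below both other wild type arrays in 84 members and above both in 22, while it was above both in 41.8% of all probe sets tested. For lying below both, the share of all probe sets is not given here. Among the members with signals on every array, it was at 106 in AT5G63190, below every other array, and at 152 in AT3G52070, above every other array.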
